A study of Rattus norvegicus with 24 samples.

Results

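The small leucine-rich proteoglycans are extracellular core proteins built from leucine-rich repeats that bind collagen fibrils, and their transcripts were followed here through the cartilage zones of the rat proximal tibia. The genes were taken by name, all of 10: Bgn, Dcn, Fmod, Lum, Prelp, Ogn, Omd, Aspn, Epyc and Kera. The platform annotation gave 12 probe sets to 8 of them, out of 14218 genes named on the array, and none to Epyc or Kera, which were dropped. Of the 12, 11 passed the filter on low signals, which asked for a signal above the array's own median in at least 4 of the 24 arrays. Ogn had 4 probe sets and Aspn had 2, of which 1381504_at did not pass. The other 6 genes had 1 each.

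Cartilage was cut by hand from 60 µm frozen sections of 1-week-old rats, none of them castrated, and total RNA was put on Affymetrix arrays, 1 array per zone and animal. The groups run from the joint towards the bone: epiphyseal cartilage (n = 4, animals 1, 2, 4 and 5), then the resting zone, the proliferative zone, the proliferative-hypertrophic transition zone and the hypertrophic zone (n = 5 each). For the resting, proliferative and hypertrophic zones the labels give male sex and growth plate cartilage. Those of the epiphyseal and transition arrays name untreated rats on standard chow and give no sex, so in a comparison across the 2 wordings any difference between these sets of arrays and the difference between zones cannot be told apart. That touches resting against epiphyseal, transition against proliferative and hypertrophic against transition, and not the other 4 planned comparisons. The labels do not say whether a number in one set names the same animal as in the other, so counts of animals and paired differences across the sets rest on matching numbers.

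In cartilage these proteins sit on the surface of collagen fibrils, where they are known to influence fibril diameter and spacing and to bind growth factors such as TGF-beta. Dcn, Bgn and Aspn form one class of the family, of which Dcn and Bgn carry chondroitin or dermatan sulfate chains. Fmod, Lum, Prelp, Omd and Kera form a further class, most of them substituted with keratan sulfate, and Ogn and Epyc belong to another. In the growth plate, chondrocytes leave the resting zone, divide in columns, enlarge in the hypertrophic zone and are then replaced by bone.

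The family lies in small gene clusters, and this order was used to set neighbours side by side. In the rat gene table of assembly GRCr8, Dcn, Lum, Kera and Epyc follow each other on chromosome 7. Prelp and Fmod are neighbours on chromosome 13, next to Optc, which encodes opticin, a further member of the wider family. Ogn, Omd and Aspn are neighbours on chromosome 17, and Bgn lies alone on X. RefSeq promoter windows of GRCr8, 250 bases before to 50 bases after the gene's start, matched 7 of the 10 genes. The 4 printed here are those of Ogn and Omd, neighbours whose signals correlated over the arrays, and of Fmod and Lum, whose signals did not follow those of their neighbours. Ogn is at chr17:15258946-15259245, minus strand, Omd at chr17:15274821-15275120, minus strand, Fmod at chr13:48045317-48045616, plus strand, and Lum at chr7:34245456-34245755, plus strand. Capitals mark matches to a searched motif, each written 5′ to 3′ along the gene's own strand.
Ogn: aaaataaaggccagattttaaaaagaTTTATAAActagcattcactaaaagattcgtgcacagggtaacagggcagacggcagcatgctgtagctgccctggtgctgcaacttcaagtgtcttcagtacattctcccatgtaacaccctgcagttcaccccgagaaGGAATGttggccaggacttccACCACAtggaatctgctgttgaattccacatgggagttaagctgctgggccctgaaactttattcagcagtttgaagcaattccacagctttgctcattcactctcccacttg
Omd: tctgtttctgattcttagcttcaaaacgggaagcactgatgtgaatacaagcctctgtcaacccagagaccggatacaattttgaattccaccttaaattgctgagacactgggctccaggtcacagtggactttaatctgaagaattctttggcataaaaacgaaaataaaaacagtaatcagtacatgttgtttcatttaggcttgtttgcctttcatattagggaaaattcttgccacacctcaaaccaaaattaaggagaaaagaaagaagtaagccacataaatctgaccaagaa
Fmod: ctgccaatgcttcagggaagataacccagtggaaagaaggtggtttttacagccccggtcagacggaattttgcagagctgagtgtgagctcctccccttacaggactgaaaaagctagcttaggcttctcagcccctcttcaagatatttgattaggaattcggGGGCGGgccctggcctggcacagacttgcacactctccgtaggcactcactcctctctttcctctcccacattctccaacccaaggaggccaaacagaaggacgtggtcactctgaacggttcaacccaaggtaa
Lum: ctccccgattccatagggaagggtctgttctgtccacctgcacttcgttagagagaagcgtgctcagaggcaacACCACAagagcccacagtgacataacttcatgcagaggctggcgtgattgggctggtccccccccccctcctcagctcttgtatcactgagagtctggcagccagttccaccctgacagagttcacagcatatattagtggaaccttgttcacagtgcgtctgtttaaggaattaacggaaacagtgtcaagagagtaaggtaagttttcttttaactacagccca
Both strands were searched for TATAAA, the core of a TATA box, and for GGGCGG, a motif of Sp factors. They were also searched for TGTGGT, known for Runx factors, for AACAAT, known for Sox factors, and for GGAATG, known for Tead factors. Among 33469 rat promoter windows of the same length, 14.2% held TATAAA, 33.1% GGGCGG, 17.3% TGTGGT, 11.7% AACAAT and 14.2% GGAATG. The Ogn window held an overlapping pair of TATAAA matches on opposite strands, GGAATG and, on the other strand, TGTGGT. The Fmod window held GGGCGG, the Lum window TGTGGT on the other strand, and the Omd window none of the 5. Ogn and Omd therefore shared no match, and these letters alone do not show binding. The GC content was 46.0% in the Ogn window, 37.7% in the Omd window, 52.7% in the Fmod window and 50.7% in the Lum window, against a median of 51.7% over all windows.

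The deposited values are MAS5 signals, a probe set's brightness on a linear scale, and tests used log2(signal + 16), so that fold changes of dim probe sets are understated. Levels of different probe sets are not set against each other. A probe set was called higher or lower at a Benjamini-Hochberg adjusted p below 0.05 from limma over all 19213 probe sets tested, with a fold of at least 2 and the animal as a block. Array medians lay between 135.3 and 244.6, actin probes at the 3′ end exceeded those at the 5′ end by 3.482 to 4.938 log2 units, and the number of arrays limits the precision. Chondrocyte markers (5 of 7 tested: Col2a1, Acan, Col9a1, Hapln1, Comp) summed to between 143389.3 and 407330.9 in every zone, and hypertrophic chondrocyte markers (3 of 4 tested) summed to between 32622.2 and 139238.2 in the transition and hypertrophic arrays and to at most 15412.8 in the others. The hypertrophic array of animal 4 stands apart. Its 11 perichondrium, tendon and fibroblast markers (of 14 listed) summed to 133981.4, against 29770.8 to 42250.3 in the other 4 hypertrophic arrays. Its osteoblast markers (5 of 7: Col1a1, Ibsp, Dmp1, Phex, Spp1) summed to 109880.9 against 30803.8 to 50276.1. Col1a1 is in both of these lists, so their sums are not independent. The osteoclast and macrophage markers (8 of 11) of this array summed to 85444.4 against 9119.3 to 13374.0. Member results whose call changes without this array are given with and without it. The same holds for genes of the further family, enzyme, collagen and proteinase lists whose call changes in hypertrophic against transition arrays. Calls of the marker genes were not recomputed without this array. The epiphyseal arrays of animals 1 and 2 stand apart too. Their osteoclast and macrophage markers summed to 66214.9 and 31355.0, against 3439.7 and 2614.2 in those of animals 4 and 5, and their endothelial markers (5 of 8) to 5448.3 and 3990.8, against 504.5 and 427.2.

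Across the 5 zones, 10 of the 11 tested probe sets differed by limma's F test, against a background of 55.6% of all probe sets tested. The exception was Aspn (adjusted p = 0.196). The highest zone mean was that of the resting zone for Dcn, Fmod and Ogn, of the proliferative zone for Lum and Prelp, and of epiphyseal cartilage for Omd and Bgn. Among these, the highest zone differed from the next at an adjusted p below 0.05 for Prelp alone (adjusted p = 0.023, limma), and the adjusted p of the others lay between 0.136 and 0.787. Fmod, Ogn, Omd and Bgn had their lowest mean in the hypertrophic zone. For Prelp the lowest depended on the scale. Its log2 mean was 7.92 in hypertrophic and 7.94 in epiphyseal arrays, and its mean signal was 285.4 and 242.9. In bulk tissue, fewer cells of a type and less RNA per cell cannot be told apart.

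**Figure D1:**
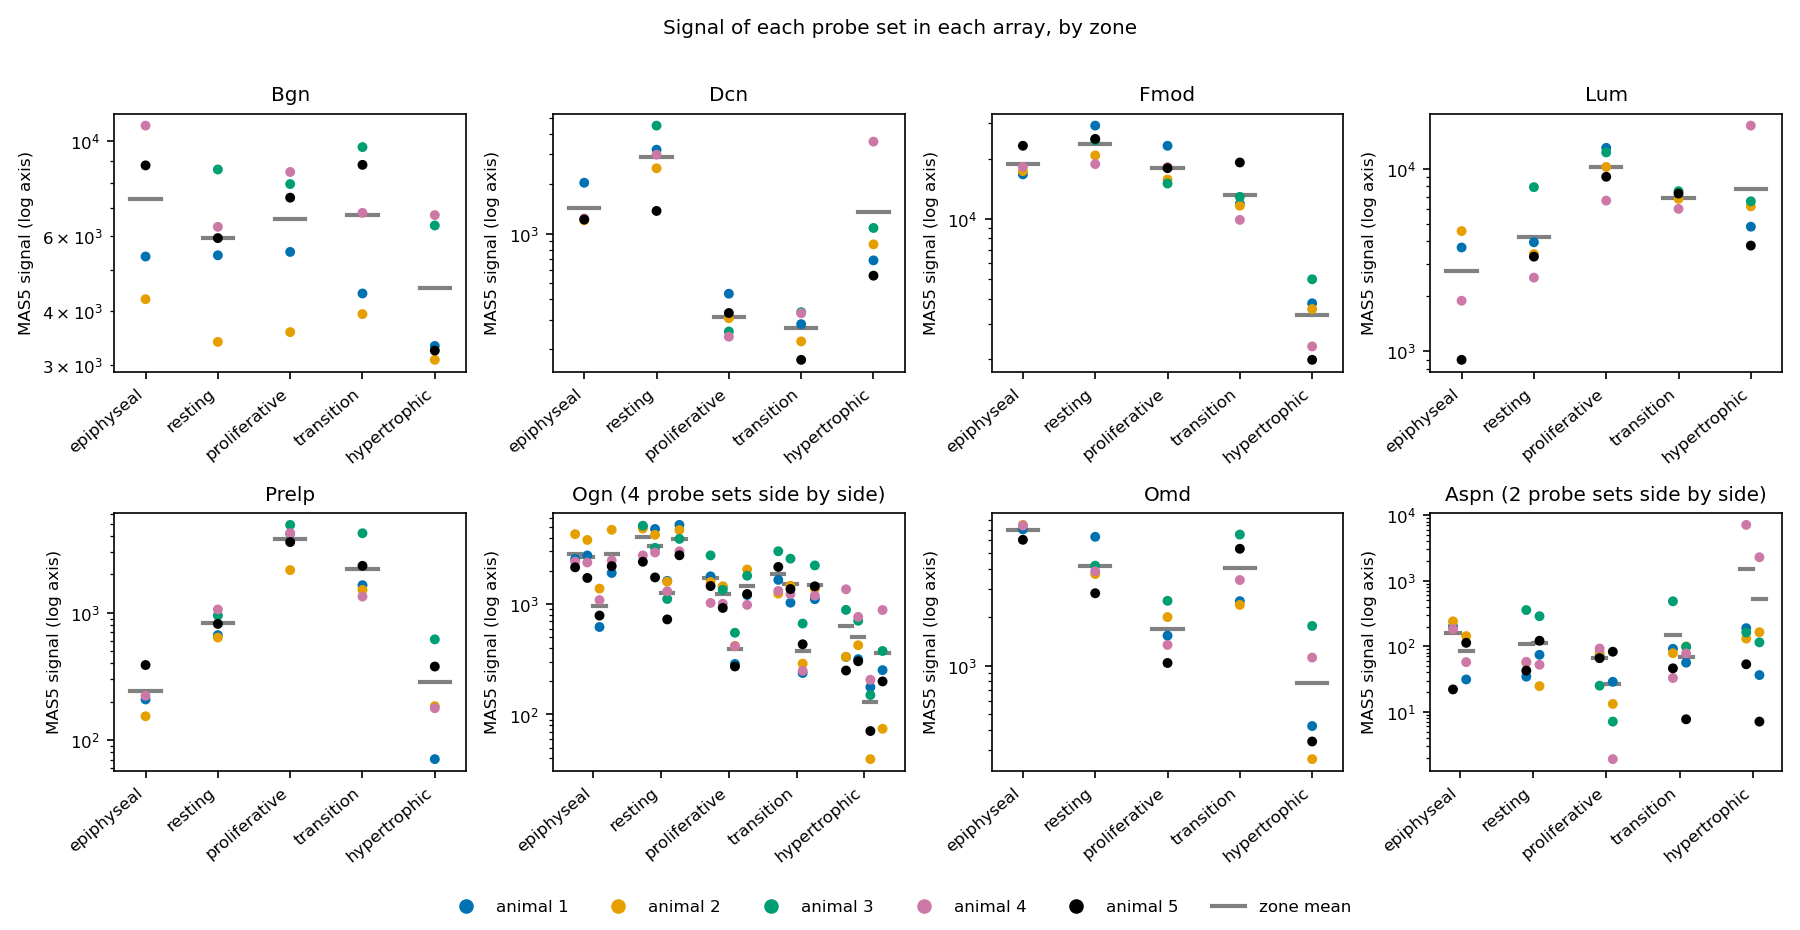
MAS5 signal (log axis) of each probe set in each of the 24 arrays, by zone, with 1 point per array coloured by animal and a grey bar for the zone mean; the 4 Ogn and the 2 Aspn probe sets stand side by side. Prelp peaks in the proliferative zone (mean 3813.8), Dcn in the resting zone (mean 2905.4) and Omd in epiphyseal cartilage (mean 7002.1), and for Aspn 1 hypertrophic array (7108.4) stands above all the others.

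Prelp, a basement membrane and cartilage protein whose amino-terminal end binds heparin, had the widest span of zone means among the members other than Aspn. Its signal was 208.0, 153.4, 222.3 and 387.8 in the epiphyseal arrays of animals 1, 2, 4 and 5. Over animals 1 to 5 it was 666.2, 637.6, 951.6, 1060.5 and 816.8 in the resting zone, 4191.9, 2162.7, 4901.2, 4220.6 and 3592.8 in the proliferative zone, 1645.6, 1511.6, 4215.2, 1340.2 and 2336.6 in the transition zone, and 70.6, 184.1, 617.2, 177.6 and 377.5 in the hypertrophic zone. The epiphyseal, resting and proliferative arrays did not overlap, and every hypertrophic array lay below every resting, proliferative and transition array. Prelp was higher by 1.56 ± 0.29 (log2, SE) in resting than in epiphyseal arrays (adjusted p = 0.00218, limma, higher in 4 of 4 animals). It was higher again by 2.16 ± 0.27 in proliferative than in resting arrays, a fold of 4.47 (adjusted p = 2.79e-06, limma, 5 of 5 animals). Transition arrays were lower than proliferative ones by less than the 2-fold limit (-0.87 ± 0.27, adjusted p = 0.023, limma). Hypertrophic arrays were then lower than transition arrays by 3.06 ± 0.27 on the log2 scale, a fold of 8.37 (adjusted p = 2.37e-08, limma, 5 of 5 animals). Set in order of their means, proliferative, transition, resting and epiphyseal arrays differed step by step at an adjusted p below 0.05, while the last step, epiphyseal to hypertrophic, did not (log2 difference 0.21, adjusted p = 0.632, limma).

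Fmod, fibromodulin, which binds type I and II collagen fibrils and carries keratan sulfate, changed little over 4 zones and was low in the hypertrophic zone. Its signal was 16679.5, 17323.7, 18183.4 and 23171.9 in the epiphyseal arrays of animals 1, 2, 4 and 5. Across animals 1 to 5 the values were 29205.1, 20734.0, 24650.2, 18769.9 and 25069.7 in the resting zone, 23169.5, 15726.2, 15018.1, 18127.3 and 17919.2 in the proliferative zone, 11900.1, 11634.7, 12888.4, 9890.6 and 19121.2 in the transition zone and 3793.5, 3551.5, 4998.8, 2312.3 and 1981.7 in the hypertrophic zone. All 5 hypertrophic arrays lay below all 19 others. Hypertrophic arrays were lower than transition arrays by 2.01 ± 0.20 on the log2 scale (4.04-fold, adjusted p = 9.25e-08, limma, 5 of 5 animals) and lower than resting arrays by 2.89 ± 0.20 (7.40-fold, adjusted p = 2.03e-11, limma). The earlier steps were smaller, with -0.40 ± 0.20 for proliferative minus resting (adjusted p = 0.198, limma) and -0.48 ± 0.20 for transition minus proliferative (adjusted p = 0.0874, limma). Over the pair of them, transition minus resting, a contrast added after the values were seen, was -0.88 ± 0.20 (adjusted p = 0.00101, limma), under 2-fold.

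Prelp and its neighbour Fmod differed in their first steps. From resting to proliferative arrays the log2 change of Prelp exceeded that of Fmod by 2.96, 2.14, 3.06, 2.03 and 2.60 in animals 1 to 5, a mean of 2.56 ± 0.47 (SD, n = 5). An exact two-sided sign-flip permutation test gave p = 0.0625, the smallest that 5 animals allow, and 0.0625 again after adjustment over 4 such pair comparisons, all chosen after the values were seen. Since Prelp rose and Fmod fell in 5 of 5 animals at this step, that p was fixed in advance and adds nothing to those directions. Both genes then fell into the hypertrophic zone.

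Lum, lumican, a keratan sulfate proteoglycan of cornea and many connective tissues, was low in epiphyseal cartilage and high in the proliferative zone. Its signal was 3695.7, 4546.2, 1888.5 and 896.6 in the epiphyseal arrays of animals 1, 2, 4 and 5. The 5 animals, in number order, gave 3947.4, 3400.2, 7908.4, 2527.6 and 3292.8 in the resting zone, 12980.3, 10200.7, 12251.6, 6671.8 and 9013.9 in the proliferative zone, 6972.3, 6827.3, 7511.4, 6012.5 and 7292.7 in the transition zone and 4804.6, 6206.5, 6614.2, 17177.5 and 3785.3 in the hypertrophic zone. The transition arrays were the most even, with an SD of 0.12 on the log2 scale, and the highest value of all was the hypertrophic array of animal 4. Lum was higher in proliferative than in resting arrays by 1.35 ± 0.33 (log2, SE; 2.56-fold, adjusted p = 0.00671, limma, 5 of 5 animals), although the resting array of animal 3 lay within the proliferative range. It was higher in transition than in epiphyseal arrays by 1.48 ± 0.36 (adjusted p = 0.00286, limma, 4 of 4 animals, ranges apart). Without the epiphyseal arrays of animals 1 and 2, which were the higher in Lum and in the marker sums above, the value was 2.25 (adjusted p = 0.000386, limma), and resting minus epiphyseal was 1.42 (adjusted p = 0.0865) against 0.65 with all arrays. The part of the marked cells in these Lum values was not tested. Hypertrophic minus proliferative was -0.58 ± 0.33 (adjusted p = 0.178, limma) with all arrays and -1.04 (adjusted p = 0.00245, limma) without the hypertrophic array of animal 4, so that this array decides whether Lum is called lower there. In order of the means no neighbouring zones of Lum differed at an adjusted p below 0.05.

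Dcn, decorin, which binds collagen I and TGF-beta and carries a single chondroitin or dermatan sulfate chain, moved opposite to its neighbour Lum from the resting to the proliferative zone. Its signal was 2025.3, 1202.7, 1232.3 and 1214.7 in the epiphyseal arrays of animals 1, 2, 4 and 5. From animal 1 to animal 5 it read 3206.9, 2477.1, 4482.1, 2991.6 and 1369.2 in the resting zone, 433.2, 308.2, 256.3, 238.3 and 331.3 in the proliferative zone, 283.8, 223.3, 335.2, 330.4 and 172.8 in the transition zone and 688.5, 860.1, 1080.6, 3588.0 and 556.7 in the hypertrophic zone. Every proliferative and transition array lay below every array of the other 3 zones. Dcn was lower in proliferative than in resting arrays by 3.08 ± 0.31 on the log2 scale, a fold of 8.45 (adjusted p = 9.58e-08, limma, 5 of 5 animals). It was lower in transition than in epiphyseal arrays by 2.39 ± 0.33 (adjusted p = 6.95e-06, limma, 4 of 4 animals). Proliferative and transition arrays themselves did not differ beyond their spread (-0.22 ± 0.31, adjusted p = 0.678, limma). Dcn was higher in hypertrophic than in transition arrays by 1.95 ± 0.31, a fold of 3.85 (adjusted p = 5.69e-05, limma, 5 of 5 animals), and by 1.50 (adjusted p = 3.31e-05) without the hypertrophic array of animal 4. It remained lower in hypertrophic than in resting arrays by 1.35 ± 0.31 (adjusted p = 0.000997, limma), in 4 of 5 animals, the exception being animal 4. In order of the means, resting and epiphyseal arrays (log2 difference 0.91, adjusted p = 0.175, limma) and epiphyseal and hypertrophic arrays (0.44, adjusted p = 0.347) did not differ at an adjusted p below 0.05. Dcn was nevertheless higher in resting than in epiphyseal arrays in 4 of 4 animals, with an unadjusted 95% confidence interval of 0.23 to 1.59.

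Perichondrium, tendon and fibroblast markers had a like order of zones to Dcn at their low end. Their sum was 25508.7 to 53617.7 in epiphyseal, 18052.1 to 33625.7 in resting, 8617.4 to 18359.3 in proliferative, 7563.1 to 13966.1 in transition and 29770.8 to 133981.4 in hypertrophic arrays. Of the 11 tested, 1 was higher and 3 lower in proliferative than in resting arrays, where 1.97% of all probe sets tested were higher and 4.12% lower. In hypertrophic against transition arrays, where 6.78% of all were higher and 2.49% lower, 6 of these markers were higher and 0 lower. Their part in the Dcn values was not tested. Skeletal muscle markers (10 of 12 tested) were also highest in resting arrays, with a median sum of 54871.9, against 6734.0 in proliferative arrays, and their part was not tested either.

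The change of Lum exceeded that of Dcn from resting to proliferative arrays by 4.56, 4.52, 4.68, 4.96 and 3.44 log2 units in animals 1 to 5 (mean 4.43 ± 0.58, SD, n = 5; exact two-sided sign-flip permutation p = 0.0625, the smallest possible). From transition to hypertrophic arrays the change of Dcn exceeded that of Lum by 1.77, 2.01, 1.83, 1.87 and 2.54 (mean 2.00 ± 0.32, SD, n = 5; exact permutation p = 0.0625). The difference was of like size in animal 4, where both genes were highest. For resting to proliferative arrays the permutation p was fixed in advance, since Lum rose and Dcn fell in 5 of 5 animals. It adds nothing to those directions. The step from transition to hypertrophic arrays was also chosen after the values were seen, so its permutation p adds no support either.

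Ogn, osteoglycin or mimecan, was measured by 4 probe sets (1376749_at, 1383263_at, 1385248_a_at and 1390450_a_at), which share 1 gene and are not independent. They correlated with each other at Pearson r of 0.91 to 0.95 over the 24 arrays. By 1383263_at the signal was 2755.3, 3804.3, 2378.5 and 1723.6 in the epiphyseal arrays of animals 1, 2, 4 and 5. Over animals 1 to 5 it was 4786.5, 4237.4, 3226.4, 2930.1 and 1742.5 in the resting zone, 1429.6, 1448.8, 1342.5, 1006.0 and 922.0 in the proliferative zone, 1028.3, 1463.4, 2577.4, 1229.5 and 1367.2 in the transition zone and 316.7, 423.4, 705.5, 765.1 and 303.3 in the hypertrophic zone. Epiphyseal and resting arrays were high and overlapped, proliferative and transition arrays were intermediate and overlapped, and all 5 hypertrophic arrays were below every other array. All 4 probe sets fell in proliferative against resting arrays, with log2 changes from -1.66 to -1.22 (adjusted p from 0.000131 to 0.0103, limma, 5 of 5 animals each). All 4 fell again in hypertrophic against transition arrays, with changes from -2.35 to -1.50 (adjusted p from 1.72e-05 to 0.00137, limma), and in hypertrophic against resting arrays, with changes from -3.75 to -2.73 (adjusted p from 8.53e-10 to 5.9e-08, limma). Animal 4 was the exception in the middle of these, since 1376749_at gave 1360.6 in its hypertrophic array and 1314.6 in its transition array. Neither resting minus epiphyseal (0.22 to 0.42) nor transition minus proliferative (-0.11 to 0.26) was called for any of the 4, at adjusted p of 0.465 or more.

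Omd, osteomodulin or osteoadherin, a keratan sulfate proteoglycan first known from bone matrix, fell, as its neighbour Ogn did, in proliferative against resting and in hypertrophic against transition arrays, and rose in transition against proliferative arrays, where Ogn was not called. Its signal was 7030.6, 7494.3, 7428.1 and 6055.2 in the epiphyseal arrays of animals 1, 2, 4 and 5. Across animals 1 to 5 the values were 6319.9, 3709.0, 4180.5, 3854.3 and 2816.6 in the resting zone, 1535.6, 2002.4, 2526.8, 1344.4 and 1037.9 in the proliferative zone, 2515.9, 2382.9, 6526.9, 3403.9 and 5325.7 in the transition zone and 420.8, 262.0, 1763.7, 1121.3 and 337.3 in the hypertrophic zone. The course had 2 high stretches, epiphyseal to resting and transition, with the proliferative zone between them. Omd was lower in proliferative than in resting arrays by 1.31 ± 0.31 (adjusted p = 0.00452, limma, 5 of 5 animals, ranges apart). It was higher in transition than in proliferative arrays by 1.20 ± 0.31, a fold of 2.29 (adjusted p = 0.0064, limma, 5 of 5 animals), with ranges that overlapped slightly, since animals 1 and 2 in the transition zone (2515.9 and 2382.9) lay just below animal 3 in the proliferative zone (2526.8). Without the transition array of animal 5 the value was 0.92 (adjusted p = 0.0369), under 2-fold. Hypertrophic arrays were lower than transition arrays by 2.61 ± 0.31, a fold of 6.09 (adjusted p = 1.38e-06, limma, 5 of 5 animals). Epiphyseal and resting arrays (log2 difference 0.98, adjusted p = 0.136, limma) and resting and transition arrays (0.12, adjusted p = 0.801) did not differ at an adjusted p below 0.05. Omd was nevertheless lower in resting than in epiphyseal arrays in 4 of 4 animals, with an unadjusted 95% confidence interval of -1.66 to -0.3.

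From proliferative to transition arrays, the log2 change of Omd exceeded the mean change of the Ogn probe sets by 0.95, 0.60, 0.96, 1.28 and 1.84 in animals 1 to 5. The mean was 1.12 ± 0.47 (SD, n = 5; exact two-sided sign-flip permutation p = 0.0625, the smallest possible). In the same zones Ogn itself changed by a mean of 0.07. This pair and step were chosen after the values were seen, so the permutation p adds no support.

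Bgn, biglycan, the close relative of Dcn with a pair of glycosaminoglycan chains, was the flattest member. Its signal was 5375.8, 4271.3, 10887.4 and 8786.5 in the epiphyseal arrays of animals 1, 2, 4 and 5. The 5 animals, in number order, gave 5411.4, 3393.2, 8594.6, 6309.7 and 5937.7 in the resting zone, 5510.6, 3577.2, 7945.2, 8480.9 and 7383.5 in the proliferative zone, 4405.3, 3942.2, 9697.0, 6801.8 and 8812.2 in the transition zone and 3319.8, 3080.4, 6354.6, 6721.1 and 3238.1 in the hypertrophic zone. Ranges of all 5 zones overlapped, and animal 2 was the lowest animal in each zone. In order of the means only the last neighbours, resting and hypertrophic, differed at an adjusted p below 0.05 (log2 difference 0.41, adjusted p = 0.0356, limma). No planned comparison of Bgn reached 2-fold. The largest planned one was hypertrophic minus transition, at -0.57 ± 0.16 (adjusted p = 0.00973, limma), and hypertrophic minus epiphyseal, added later, was -0.81 ± 0.17 (adjusted p = 0.000558, limma).

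Aspn, asporin, a decorin-like protein without a glycosaminoglycan chain, was dim. Its probe set 1380726_at lay above the array median in 8 of 24 arrays, and 1381504_at in 2 of 24. By 1380726_at the signal was 201.6, 240.2, 183.5 and 22.0 in the epiphyseal arrays of animals 1, 2, 4 and 5. From animal 1 to animal 5 it read 34.4, 56.5, 357.2, 57.9 and 42.6 in the resting zone, 72.5, 80.7, 25.1, 92.5 and 65.9 in the proliferative zone, 91.6, 78.5, 485.8, 32.8 and 46.1 in the transition zone and 189.1, 131.0, 162.7, 7108.4 and 53.2 in the hypertrophic zone. The second probe set gave 2282.5 in the hypertrophic array of animal 4 and at most 288.0 in the other 23 arrays. No zone comparison of Aspn was called, and hypertrophic minus proliferative was 1.95 ± 0.80 (adjusted p = 0.058, limma) with all arrays and 0.76 (adjusted p = 0.335) without that array.

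**Figure D2:**
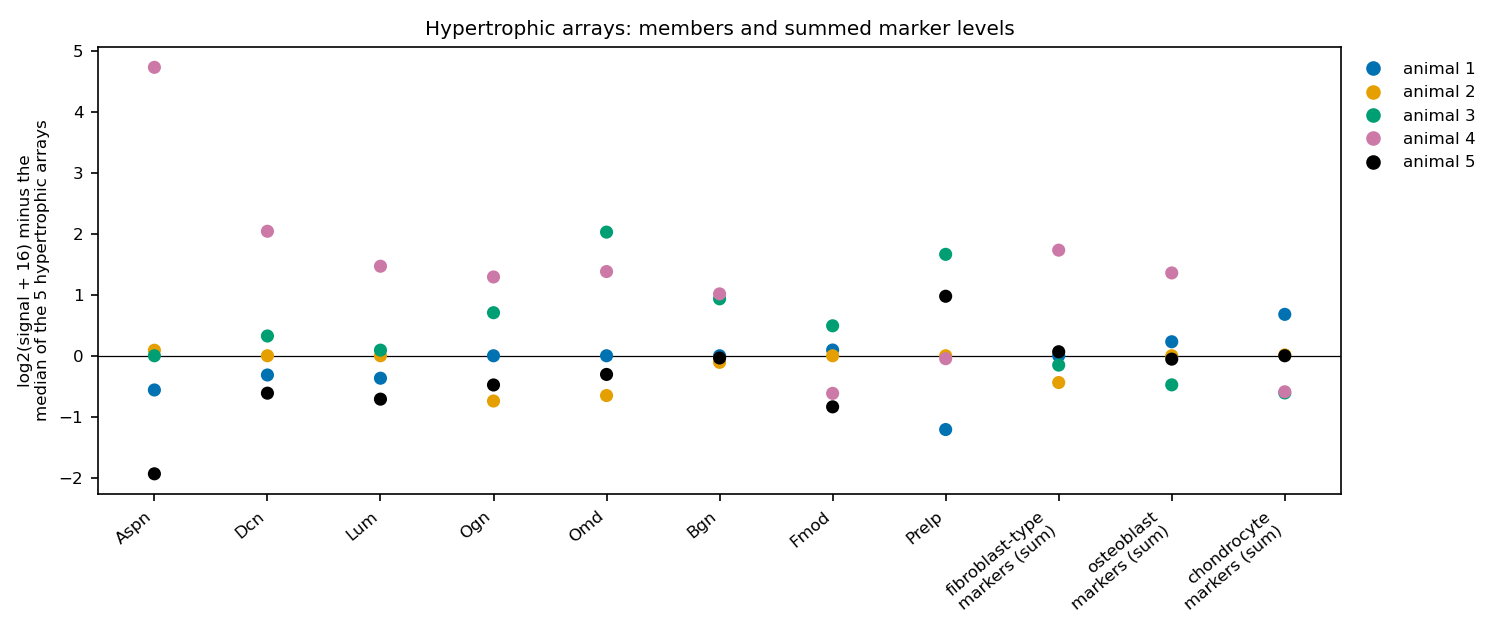
Log2(signal + 16) in each of the 5 hypertrophic arrays minus the median of the 5 arrays, for the members (mean over probe sets for Aspn and Ogn) and for 3 summed marker lists, coloured by animal. Animal 4 is highest for Aspn, Dcn, Lum, Ogn, Bgn and for the fibroblast-type and osteoblast sums (133981.4 and 109880.9), and not for Omd, Prelp, Fmod or the chondrocyte sum.

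Taken zone pair by zone pair, the called member probe sets were counted against the background of all 19213 tested. From epiphyseal to resting arrays 1 of 11 (Prelp) was higher and 0 lower, where 0.651% of all probe sets were higher and 0.859% lower. The members' median log2 change was 0.29, against 0.027 for all. From resting to proliferative arrays 2 (Prelp, Lum) were higher and 6 (Dcn, the 4 of Ogn, Omd) lower, where 1.97% of all were higher and 4.12% lower, and the medians were -1.22 and -0.019. From proliferative to transition arrays 1 (Omd) was higher and 0 lower, where 3.11% of all were higher and 5.31% lower, with medians of 0.01 and -0.065.

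Most of the called falls were in comparisons with the hypertrophic zone. Against transition arrays 1 probe set (Dcn) was higher and 7 (Prelp, Fmod, Omd and the 4 of Ogn) were lower, where 6.78% of all were higher and 2.49% lower, with a member median of -1.61 and a median of 0.016 for all. Against proliferative arrays the count was again 1 higher (Dcn) and 7 lower (the same genes), where 9.59% were higher and 9.07% lower, with medians of -1.41 and -0.049. Against resting arrays 0 were higher and 8 lower, those 7 and Dcn, where 9.32% were higher and 11.8% lower, with medians of -2.72 and -0.043. These 3 comparisons share the hypertrophic arrays. Markers listed for other cells were also higher in hypertrophic than in transition arrays. All 5 tested osteoblast markers were called higher, with sums of 30803.8 to 109880.9 in hypertrophic and 4486.7 to 9798.1 in transition arrays. So were all 4 erythroid markers (of 8 listed), with 8640.8 to 27366.5 and 1024.0 to 5153.9, and all 5 leukocyte markers (of 7 listed), with 3306.3 to 13731.2 and 667.5 to 2684.7. Of the tested osteoclast and macrophage markers 7 of 8 were higher, of the endothelial 3 of 5 and of the skeletal muscle 7 of 10, while 0 of the 5 chondrocyte markers were called either way. Which cells made these marker transcripts was not tested, nor was the part of such cells in the members' values.

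In transition against epiphyseal arrays 2 (Prelp, Lum) were higher and 3 (Dcn, Omd and Ogn 1385248_a_at) lower, where 4.33% were higher and 9.46% lower, with medians of -0.80 and -0.073. There Ogn 1390450_a_at was at -0.98 ± 0.40 (adjusted p = 0.0671, limma) with all arrays and at -1.01 (adjusted p = 0.00986) in the fit without the hypertrophic array of animal 4. Omd was at -1.10 ± 0.33 (adjusted p = 0.0145, limma) with all arrays. Its call was lost without the epiphyseal arrays of animals 1 and 2 (-0.97, adjusted p = 0.123, limma). It was also lost without animal 1 (-1.01, adjusted p = 0.0562) and without animal 2 (-0.93, adjusted p = 0.0677). Since Ogn supplies 4 of the 11 probe sets, by gene the counts were 2 higher and 3 lower of 8 for proliferative against resting and 1 higher and 4 lower of 8 for hypertrophic against transition arrays.

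**Figure D3:**
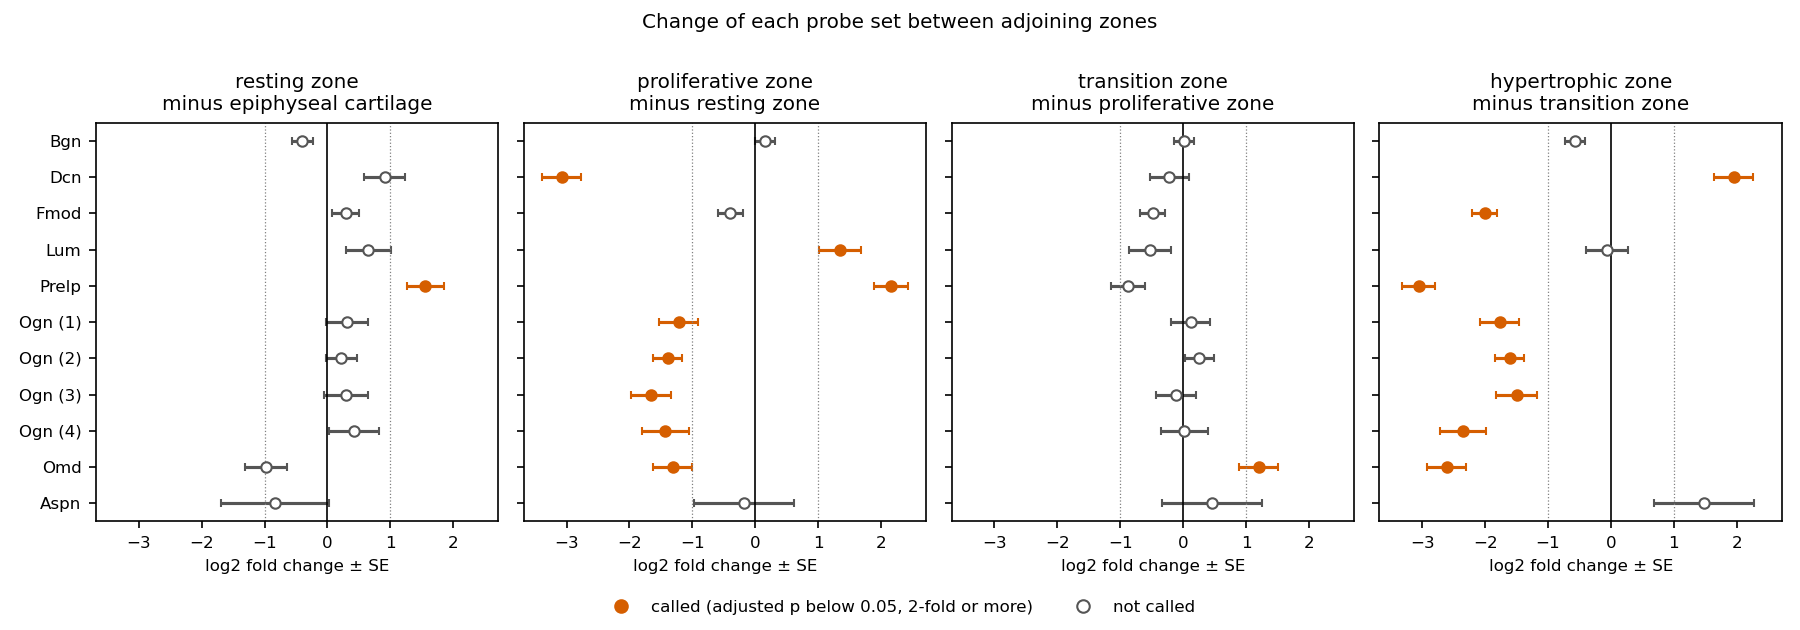
Log2 fold change ± SE (horizontal axis) of each of the 11 tested probe sets in each of the 4 comparisons of adjoining zones, with filled points for called changes and dotted lines at 2-fold; Ogn (1) to (4) are 1376749_at, 1383263_at, 1385248_a_at and 1390450_a_at. Dcn lies at -3.08 in proliferative against resting arrays and at 1.95 in hypertrophic against transition arrays, opposite in sign to Prelp (2.16 and -3.06) in both.

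Over the 24 arrays, which share 5 zones and 5 animals, the members fell into different groupings with and without the zone differences, and these correlations are descriptions. Ogn and Omd, neighbours on chromosome 17, correlated at Pearson r of 0.85 to 0.89. With zone and animal means taken out, the r was 0.67 to 0.81, and 0.61 to 0.76 when the hypertrophic array of animal 4 was left out too. Their neighbour Aspn, by the dim 1380726_at, correlated with Omd at -0.09 and with Ogn at -0.12 to -0.03 over the arrays. With the means taken out these were 0.23 and 0.30 to 0.60. Without the hypertrophic array of animal 4 they were then -0.25 and -0.13 to 0.02. Fmod, on another chromosome, correlated with Ogn at 0.80 to 0.83 over the arrays, but at -0.12 to 0.13 with zone and animal means taken out, and at 0.03 to 0.43 when the hypertrophic array of animal 4 was left out too. Dcn and Lum, neighbours on chromosome 7, correlated at -0.36 over the arrays and at 0.65 with the means taken out. That 0.65 was 0.16 without the hypertrophic array of animal 4. Prelp and Fmod, neighbours on chromosome 13, gave 0.45 and, with the means taken out, 0.14. Bgn and Fmod gave 0.42 over the arrays and 0.73 with the means taken out, 0.87 without the hypertrophic array of animal 4.

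**Figure D4:**
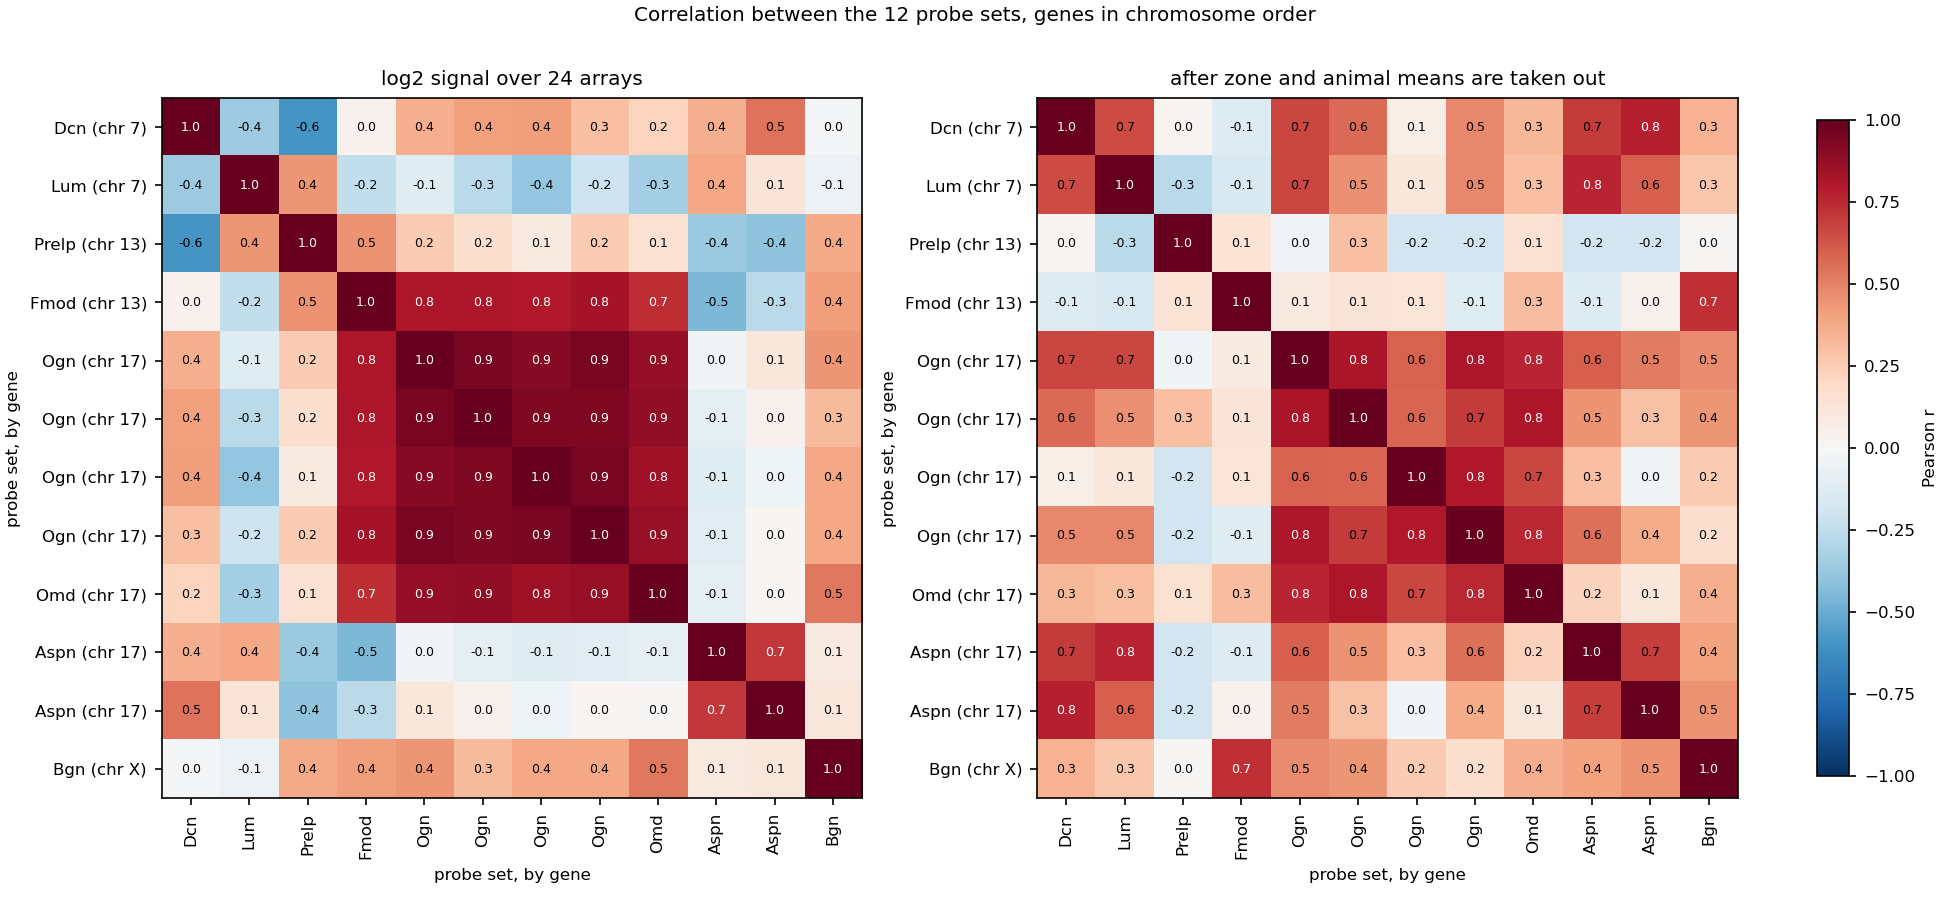
Pearson r between the log2 signals of the 12 probe sets over 24 arrays (left) and after zone and animal means are taken out (right), with genes in chromosome order on both axes and colour for r from -1 to 1. Ogn and Omd form a block in both panels (0.85 to 0.89 and 0.67 to 0.81), while Dcn and Lum change from -0.36 to 0.65.

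Among other genes, those whose log2 signal was most like each member over the 24 arrays were ranked by Pearson r. For Dcn they were Serpine2 (r = 0.94), a secreted serine proteinase inhibitor, Pdgfra (0.89), the PDGF alpha receptor of mesenchymal cells, and Myzap (0.89). For Fmod they were Armh4 (0.97), Loxl3 (0.96), a lysyl oxidase that cross-links collagen, and Scrg1 (0.95). For Prelp they were Usp6nl, Sult5a1 and Gdf10, a BMP-family ligand, all at 0.93. For Lum they were Ahcy (0.86), Mertk (0.83) and Rassf4 (0.83), and for Omd Srpx (0.91), Tmed3 (0.87) and App (0.86). Ogn had Pithd1, Tspan3 and Zfp637 by 1376749_at at 0.91 to 0.92, and partly other genes by its other probe sets. They were Sema6a, Pithd1 and Akap9 by 1383263_at (all 0.89) and Ppp1r3b, Akap9 and Pou3f3 by 1385248_a_at (0.89 to 0.91). By 1390450_a_at they were Sspn, Ampd2 and Tspan3 (0.89 to 0.93). Bgn had Cuta (0.85), Pop7 (0.82) and Mif (0.80). For Aspn, Postn, periostin, a matrix protein of fibrous tissue and bone, came first at 0.79 and Spp1, osteopontin, second at 0.78. Spearman's rho for Spp1 was 0.44.

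Other genes of the family and of its chains and partners were described by lists. Of 7 further leucine-rich proteoglycan genes, 5 were tested. Optc, the neighbour of Prelp, was higher in proliferative than in resting arrays by 1.06 ± 0.28 (adjusted p = 0.0123, limma) and lower in hypertrophic than in proliferative arrays by 1.07 ± 0.28 (adjusted p = 0.00413, limma). Optc was dim, at 62.8 to 148.4 in resting, 129.0 to 326.2 in proliferative and 92.2 to 133.7 in hypertrophic arrays. It lay below the array median in every epiphyseal, resting and hypertrophic array. It therefore passed the filter only through proliferative and transition arrays. Chad, chondroadherin, a cartilage protein that binds cells and collagen, was higher in transition than in epiphyseal arrays by 1.14 ± 0.30 (adjusted p = 0.00513, limma), and the list's other calls were 0 in the 7 comparisons.

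Of 30 enzymes that build chondroitin, dermatan and keratan sulfate, 19 were tested. From resting to proliferative arrays, where 8 member probe sets were called, 0 enzymes were higher and 1 lower, with a list median of 0.19. Of all probe sets tested, 1.97% were higher and 4.12% lower there. In hypertrophic against transition arrays, where 6.78% of all probe sets tested were higher and 2.49% lower, 0 enzymes were higher and 5 lower. They included the chondroitin sulfotransferase Chst12 (-1.70 ± 0.33), the chondroitin synthase Chsy3 (-1.69 ± 0.29) and the xylose kinase Fam20b, which acts on the linkage region of the chains (-1.23 ± 0.14). In hypertrophic against resting arrays 3 were higher and 5 lower, where 9.32% of all probe sets tested were higher and 11.8% lower. B3gnt2, which extends poly-N-acetyllactosamine, was higher by 2.84 ± 0.19 and the sulfotransferase Chst5 by 2.47 ± 0.38. B3gnt7, which extends keratan sulfate chains, was lower by 1.29 ± 0.24. Both B3gnt2 and Chst5 were already higher in transition than in proliferative arrays (1.81 ± 0.19 and 1.85 ± 0.38), and hypertrophic minus transition was 0.20 ± 0.19 (adjusted p = 0.487, limma) for B3gnt2 and 0.39 ± 0.38 (adjusted p = 0.505) for Chst5. Csgalnact1, which starts chondroitin chains, was lower in hypertrophic than in transition arrays by 1.12 ± 0.16 and, without the hypertrophic array of animal 4, by 0.94 (adjusted p = 4.04e-05, limma), under 2-fold.

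All 16 fibrillar and fibril-surface collagen genes were tested. In hypertrophic against transition arrays 5 were higher, among them Col1a1 (2.64 ± 0.40), Col1a2 (2.36 ± 0.26) and Col3a1 (2.30 ± 0.58), and 1 was lower, Col12a1 (-1.32 ± 0.32). Of all probe sets tested, 6.78% were higher and 2.49% lower there. Col1a1, Col1a2 and Col3a1 are also in the fibroblast marker list. Col6a1 and Col6a2, chains of the pericellular collagen VI, which several family members bind, were lower in proliferative than in resting arrays (-2.03 ± 0.18 and -1.37 ± 0.17) and higher in transition than in proliferative arrays (1.68 ± 0.18 and 1.39 ± 0.17). In hypertrophic against transition arrays Col6a1 was higher again (1.01 ± 0.18, adjusted p = 0.000189, limma), and Col6a2 was at 0.99 ± 0.17 (adjusted p = 0.000163), under 2-fold, and was called at 1.17 (adjusted p = 9.58e-06) without the hypertrophic array of animal 4. Without that array Col3a1 was at 1.52 (adjusted p = 0.017, limma). Col14a1, a fibril-surface collagen that is also in the fibroblast marker list, was lower in proliferative than in resting arrays by 2.76 ± 0.35 (adjusted p = 3.76e-06, limma). Its hypertrophic minus transition value was -0.85 ± 0.35 (adjusted p = 0.0864, limma) with all arrays and -1.32 (adjusted p = 0.00134) without the hypertrophic array of animal 4.

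Of 10 proteinases able to cut these core proteins, 9 were tested. In hypertrophic against transition arrays 4 were higher and 0 lower, with Mmp9 at 3.19 ± 0.73, Mmp13 at 3.07 ± 0.64 and Adamts1 at 2.39 ± 0.29 (log2, SE). Of all probe sets tested, 6.78% were higher and 2.49% lower there. Bmp1, which removes the propeptide of several family members, changed by -1.45 ± 0.14 in proliferative against resting arrays (adjusted p = 4.55e-08, limma) and was the fourth of the higher proteinases in hypertrophic against transition arrays, at 2.14 ± 0.14 (adjusted p = 3.43e-10). Mmp9 is also in the osteoclast and macrophage list, whose sum was 9119.3 to 85444.4 in hypertrophic arrays and 1437.3 to 2304.9 in transition arrays, and the part of such cells in the proteinase values was not tested.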

How the data were processed

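Total RNA from hand-cut cartilage zones (50 to 100 ng) was amplified in a pair of cycles, biotin-labelled and put on Affymetrix arrays, per the labels' protocols. Each deposited value is a linear intensity, made with MAS5 for 1 probe set, according to the tool named per the submitters' processing notes. The trimmed mean lay between 500.1 and 500.2 in every array. The version of MAS5 was not given in these sources, and no detection calls were used.

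From these values log2(signal + 16) was computed, 57 control probe sets were left out of 31099, and 19213 (61.8%), above their array's median in at least 4 arrays, were tested. All 24 arrays entered a limma 3.58.1 fit (R 4.3.3; lmFit, then contrasts.fit and eBayes with trend), with the animal as a fixed block and 15 residual degrees of freedom. A call needed a Benjamini-Hochberg adjusted p below 0.05 over all tested probe sets and a fold of at least 2. The code was tested on simulated data. Other counts, correlations and sign-flip tests used Python 3.11.15, numpy 2.4.6 and pandas 2.3.3.

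The labels number the animals, and the block rests on them, although nothing says whether a number names the same animal in both sets of labels. Deviations from zone means correlated at a median r of 0.158 between same-numbered arrays with labels worded alike (19 pairs) and of 0.183 with labels worded differently (27 pairs, from -0.142 to 0.36), against -0.044 and -0.049 between other animals. No 2 arrays of a zone shared more than 50 identical values.

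Gene names came from the platform annotation, and probe sets with several symbols were not named. Every annotated probe set of the members is described, and like genes are named by the 3 highest Pearson r. List genes were drawn mainly from the largest called changes, up to 3 each way, and not all of these are given. Larger changes left out include Mmp3 in transition against epiphyseal arrays (-4.07 ± 0.82) and Col14a1 in hypertrophic against resting arrays (-4.04 ± 0.35). The members and lists were chosen with earlier results of these data known.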

Additional observations from a re-analysis of the deposited data

Results flagged for a closer look

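In 5 of 60 sets of values (12 probe sets in 5 zones) the highest or lowest array was far from the others by Dixon's criterion, of which chance gives about 1 in 20. The Dcn signal was 2025.3 in the epiphyseal array of animal 1 and 1202.7 to 1232.3 in the other 3. The remaining 4 were all Aspn by 1380726_at, a dim probe set. It gave 22.0 in the epiphyseal array of animal 5, against 183.5 to 240.2 in the others. It gave 357.2 in the resting array of animal 3, against 34.4 to 57.9, and 25.1 in the proliferative array of animal 3, against 65.9 to 92.5. In the hypertrophic array of animal 4 it gave 7108.4, against 53.2 to 189.1 in the other 4.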

How the results depend on the processing

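Of 1379 values of single member probe sets recomputed under another setting, 1353 kept their side of the threshold, 14 passed it newly and 12 no longer passed it. None that was called in the main fit or under the other setting turned direction. For values called in neither, the direction was not compared. The settings were pseudocounts of 1 and 64, quantile and median scaling, 2 other filters, no replicate block, a random replicate block, no variance trend, only the zones compared, and each replicate left out; the sets of arrays left out singly were chosen after seeing the data. Called member counts for resting against epiphyseal arrays were 0 to 1 with a replicate left out (1 with all), being 0 without animal 2 and without epiphyseal animals 1 and 2, where Prelp was at 1.44 (adjusted p = 0.0635) and 1.49 (adjusted p = 0.0551). For transition against proliferative arrays they were 0 to 2 (1 with all): 2 without animal 3, and 0 without animal 5 or its transition array, where Omd was at 0.91 (adjusted p = 0.0725) and 0.92 (adjusted p = 0.0369). The others ranged from 7 to 8 for proliferative against resting, 8 to 8 for hypertrophic against transition, 8 to 10 against resting, 8 to 9 against proliferative, and 4 to 7 for transition against epiphyseal arrays, and 10 differed across the zones in each. With no replicate block or a random one 9 differed across the zones (10 with the fixed block). Omd in transition against epiphyseal arrays was at -0.91 (adjusted p = 0.0863) with no block. It was at -0.99 (adjusted p = 0.0319), under 2-fold, with the random block and at -1.10 (adjusted p = 0.0145) with the fixed one. For the same comparison, scaling to one median gave -0.79 (adjusted p = 0.109). That scaling moved the median of all probe sets from 0.016 to -0.24 in hypertrophic against transition arrays and from -0.073 to 0.216 in transition against epiphyseal arrays, and by less than these in the others. Without animal 1, Ogn 1390450_a_at in proliferative against resting arrays was at -1.26 (adjusted p = 0.0712), and without animal 5, Lum in transition against epiphyseal arrays was at 1.00 (adjusted p = 0.0681). Without animal 3, hypertrophic minus resting was called for Lum (1.03) and Aspn (2.47), which without the hypertrophic array of animal 4 were at 0.31 (adjusted p = 0.356) and 0.58 (adjusted p = 0.467). All adjusted p-values are limma's, and the causes were not tested.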
